A study of Mus musculus with 6 samples.

Results

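The genes described here are 10 members of the bone morphogenetic protein (BMP) pathway among the 54418 gene identifiers measured: the ligands Bmp2, Bmp4 and Bmp7, the receptors Bmpr1a, Bmpr1b and Bmpr2, and the target genes Id1, Id2, Id3 and Id4. They were chosen by name for their role in the pathway, and all 10 were found in the count table. The libraries came from FACS-sorted mammary epithelium of female C57BL/6 mice aged 4 weeks, 3 of them Glis2+/+ and 3 Glis2-/-, with 1 library per mouse. Glis2 encodes a zinc finger transcription factor, and the Glis2-/- mice carry a germline knockout, which is not restricted to the mammary epithelium. The labels name no treatment. The comparison addresses how the loss of Glis2 alters gene expression in the mammary epithelium.

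BMP ligands are secreted dimers that bring type I receptors, such as BMPR1A and BMPR1B, together with the type II receptor BMPR2. The activated type I kinase phosphorylates SMAD1, SMAD5 and SMAD9, which enter the nucleus with SMAD4, and the Id genes are among the best known direct targets of these complexes. Id proteins have a helix-loop-helix domain but no DNA-binding region, and they hold E proteins such as TCF3, TCF4 and TCF12 away from DNA. In the mammary gland, BMP4 and BMPR1A act in the embryonic bud, Id2 is needed for the alveoli of pregnancy, and Id4 is a factor of basal cells.

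No member passed the test between the genotypes. Levels are given as CPM, the counts divided by library size and edgeR's TMM factors. A gene was called where edgeR's quasi-likelihood test gave an adjusted p of at most 0.05 and the log2 fold change was 0.58 or more in size, over the 21236 genes left by its low-count filter. Of the 10 members, 9 passed that filter and 0 were called, against 0% of all genes tested. DESeq2 with apeglm, the procedure of the study's methods, also called 0 members, against 0.165% of all genes. The unadjusted edgeR p was under 0.05 for 2 of the 9 members, Bmp2 and Id3, against 5.32% of all genes, and DESeq2 also had 2 members under 0.05. The smallest adjusted p among the members was 0.906 in edgeR. The log2 fold change was above 0 for 7 of the 9, against 51.6% of all genes, and its median over the 9 was 0.07, against 0.01 over all genes tested. On TPM rescaled without Gm23935 the Glis2-/- mean was the higher for 4 of the 9 members, against 41.6% of all genes. On that scale the median over all genes was -0.05 in limma, against -0.01 for the members.

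The libraries held between 24996524 and 31393917 counts. Glis2 had 671, 663 and 510 counts in the Glis2+/+ and 252, 509 and 510 in the Glis2-/- libraries, and its log2 fold change was -0.57 ± 0.22 (SE, edgeR adjusted p = 0.906). In CPM it was lower in each Glis2-/- library (10.1, 17.0 and 16.3) than in each Glis2+/+ library (21.7, 23.2 and 19.6), with an unadjusted edgeR p of 0.032, while on rescaled TPM the genotypes overlapped. Glis2 transcript was thus still counted in the Glis2-/- libraries, at a lower level by CPM. Epithelial markers (Epcam, Cdh1 and 4 keratins) summed to 3482 to 5747 CPM in Glis2+/+ and 3746 to 5613 CPM in Glis2-/- libraries. The sort used antibodies to TER-119, CD31 and CD45, which mark erythroid, endothelial and immune cells, and to CD24 and CD49f. The 7 fibroblast markers, led by Col3a1, summed to 2306 to 7768 CPM in Glis2+/+ and 2605 to 5919 CPM in Glis2-/- libraries, lowest in replicate 2 of each genotype, and 6 of the 7 had a log2 fold change below 0 (median -0.37). The 6 endothelial markers summed to 119 to 639 CPM and 181 to 645 CPM, also lowest in replicate 2 of each. Since these are bulk libraries, fewer cells of a type and less RNA per cell cannot be told apart.

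The order of the members by level per length shows which parts of the pathway were well represented in these cells. TPM values, which divide by transcript length, were used for this order, rescaled within each library over all genes other than Gm23935, because Gm23935 alone took 83.0% to 85.7% of the deposited TPM. Id2 stood highest, with 78.0 ± 14.8 TPM (SD, n = 6), above 89.4% of the 15213 protein-coding genes tested. Bmpr1a followed with 74.4 ± 6.30 TPM (SD, n = 6) and Id3 with 66.5 ± 18.5 TPM (SD, n = 6). Id2 lay above Bmpr1a in 3 of 6 libraries and Bmpr1a above Id3 in 4 of 6, so that these neighbours did not differ beyond their spread.

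Bmpr2, Id4 and Id1 formed a middle group with means of 49.9, 45.1 and 39.7 TPM. Bmpr2 lay above Id4 in 4 of 6 libraries and Id4 above Id1 in 4 of 6. Id1 lay above Bmp7 in 6 of 6 libraries. The ligands were far lower, with 20.03 ± 4.45 TPM (SD, n = 6) for Bmp7, 6.13 ± 7.30 TPM for Bmp4 and 3.23 ± 2.07 TPM for Bmp2. The Bmp4 mean rested on Glis2+/+ replicate 3, where Bmp4 (20.8 TPM) stood above Bmp7 (18.9 TPM), and was 3.19 ± 1.27 TPM (SD, n = 5) without it. Bmpr1b was near 0, with 0.127 ± 0.107 TPM. The order of the 10 genes was the same in the deposited TPM values. This ranking is plotted by library in the chart of levels per length.

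**Figure D1:**
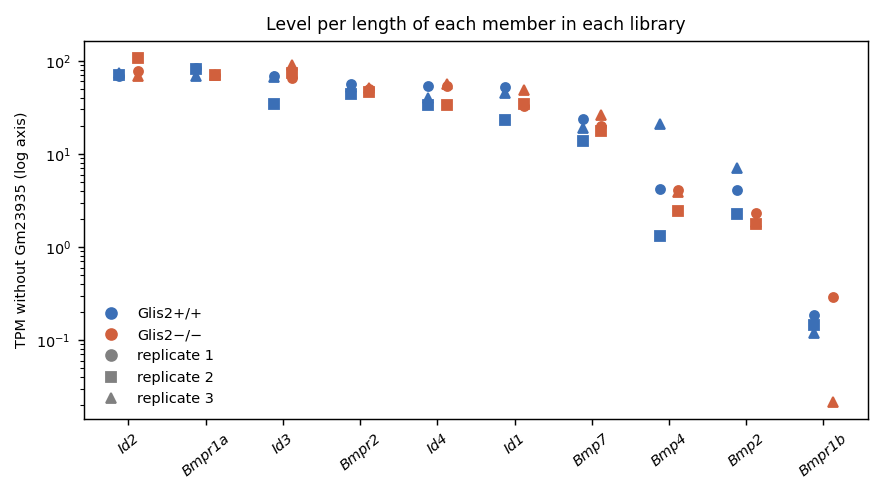
TPM of each member without Gm23935 (log axis), one point per library, with colour for genotype and shape for replicate. The Id genes, Bmpr1a and Bmpr2 average between 39.7 and 78.0 TPM, the 3 ligands lie lower, and Bmpr1b is near 0 (its Glis2-/- replicate 2, listed at 0, is not drawn).

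Among the ligands, Bmp2 had the largest fitted difference of the 9 members, a rank that rested on 1 library. Bmp2 (ENSMUSG00000027358, chromosome 2, 133552159 to 133562885 of GRCm38) encodes a BMP ligand that also acts in bone and heart development. It stood at 9.496, 5.57 and 16.5 CPM in the Glis2+/+ libraries and at 5.75, 4.54 and 4.60 CPM in the Glis2-/- libraries, from 136 to 429 counts. The Glis2+/+ libraries were spread widely and the Glis2-/- libraries lay close together, with Glis2+/+ replicate 2 below Glis2-/- replicate 1. The log2 fold change was -1.08 ± 0.38 (SE), a ratio of 0.473 with a 95% interval of 0.258 to 0.867, with an unadjusted p of 0.021 and an adjusted p of 0.906 in edgeR. Without Glis2+/+ replicate 3, the highest library, the log2 fold change was -0.60 with an unadjusted p of 0.114, beside -0.61 for Bmp4 and 0.62 for Id3. By summed CPM, the markers of fibroblasts, adipocytes and skeletal muscle were also highest in that library, while those of pericytes and endothelial cells were not. Taken singly, Lum, Pdgfra, Lep, Cfd, Acta1 and Mylpf of these fibroblast, adipocyte and muscle markers were highest in another library. The 4 adipocyte markers summed to 15.3, 6.02 and 20.3 CPM in the Glis2+/+ and 4.04, 6.04 and 8.72 CPM in the Glis2-/- libraries, with a median log2 fold change of -0.73, and Adipoq reached at most 4.07 CPM and Plin1 at most 14.4 CPM. The 4 skeletal muscle markers summed to 17.9, 4.13 and 19.7 CPM in the Glis2+/+ and 7.23, 9.38 and 7.41 CPM in the Glis2-/- libraries, with a median log2 fold change of -0.92. The 5 pericyte markers all had a log2 fold change below 0 (median -0.38, that of Notch3). They summed to 537.5, 327.2 and 431.9 CPM in the Glis2+/+ and 315.0, 305.4 and 410.3 CPM in the Glis2-/- libraries. Notch3 gave 234.3 CPM of the sum in Glis2+/+ replicate 2, its highest value, while the other pericyte markers were lowest there among the Glis2+/+ libraries. The part of these cells in the Bmp2 values was not tested.

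Bmp4 (ENSMUSG00000021835, chromosome 14, 46383520 to 46390669) is the ligand of the mammary mesenchyme in the embryo. It had 5.06, 1.82 and 4.99 CPM in the Glis2+/+ and 3.16, 0.968 and 2.62 CPM in the Glis2-/- libraries, on 29 to 156 counts. The genotypes overlapped, and the lowest library of each genotype was replicate 2, which was also the lowest in fibroblast and endothelial markers. Its log2 fold change was -0.82 ± 0.55 (SE, edgeR adjusted p = 0.941), with a 95% interval of the ratio from 0.237 to 1.36. It was -1.16 when Glis2+/+ replicate 2 was left out and -0.46 when Glis2-/- replicate 2 was. The TPM values of Bmp4 did not follow its counts. Rescaled TPM per CPM ranged 5.81-fold across the libraries for Bmp4 and at most 1.32-fold for the other 8 members tested. In Glis2+/+ replicate 3, Bmp4 stood at 20.8 TPM, against 4.17 TPM in Glis2+/+ replicate 1, at nearly the same CPM. The cause was not tested. The antisense gene Gm15222 overlaps Bmp4 and had 0 to 35 counts, so that reads of either could have been counted for the other.

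Bmp7 (ENSMUSG00000008999, chromosome 2, 172868012 to 172940321) was the main ligand by counts. Its levels were 54.9, 29.96 and 43.6 CPM in the Glis2+/+ and 50.3, 40.5 and 60.6 CPM in the Glis2-/- libraries. The genotypes overlapped, with a log2 fold change of 0.24 ± 0.23 (SE, edgeR adjusted p = 0.946). The 95% interval of the log2 fold change was -0.29 to 0.76. Leaving out 1 mouse, the value was 0.04 without Glis2+/+ replicate 2, 0.07 without Glis2-/- replicate 3, 0.37 without Glis2-/- replicate 2 and 0.44 without Glis2+/+ replicate 1. Bmp7 held 67.0% to 80.2% of the CPM of the 3 ligands in the Glis2+/+ libraries and 84.9% to 89.4% in the Glis2-/- libraries, without overlap. On rescaled TPM its shares were 74.2%, 79.5% and 40.4% against 75.7%, 80.6% and 81.9%, and the genotypes overlapped. This share was formed after the values of the single genes were seen and is given as a description.

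**Figure D2:**
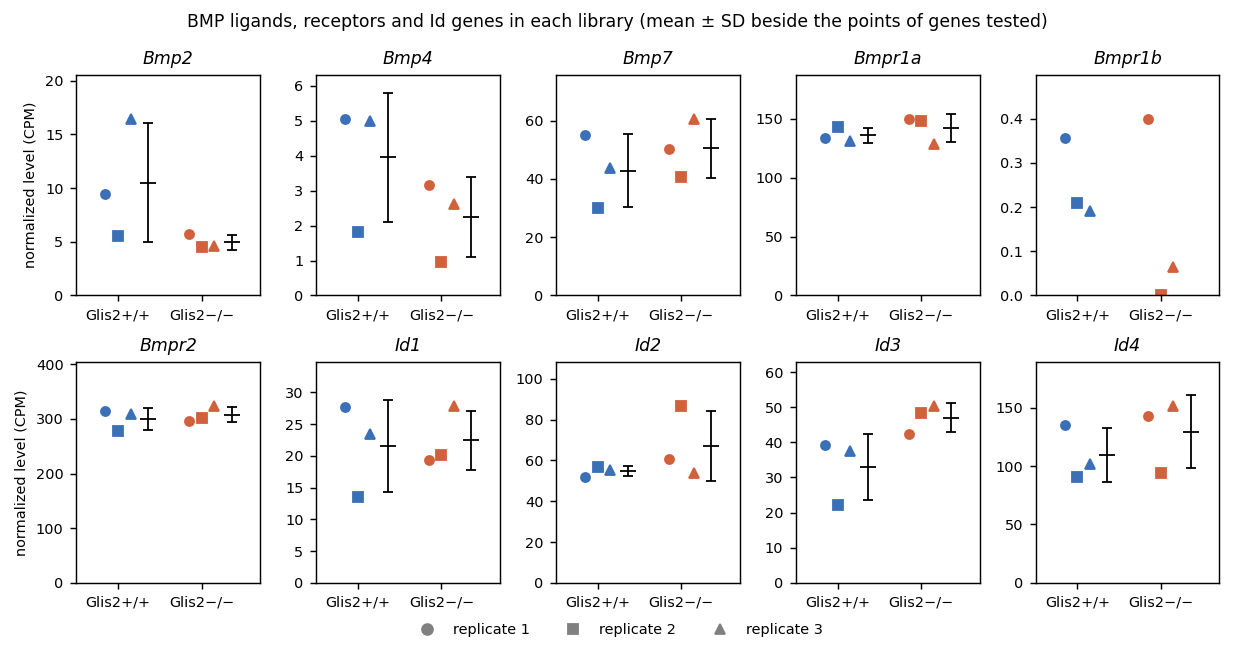
Normalized level in CPM of each member (y axes from 0), one point per library by genotype, with the mean and SD beside the points of the genes tested. Bmp2 reaches 16.5 CPM in Glis2+/+ replicate 3 and stays between 4.54 and 5.75 CPM in the Glis2-/- libraries, the genotypes overlap for Bmpr1a and Bmpr2, and Id3 is the only member tested whose genotypes do not overlap in CPM, while they overlap in TPM.

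Bmpr1a and Bmpr2 varied little between libraries, while Bmpr1b was barely detected. Bmpr1a (ENSMUSG00000021796, chromosome 14, 34410734 to 34503341), the type I receptor needed for early mammary development, had 133.8, 143.3 and 130.8 CPM in the Glis2+/+ libraries. In the Glis2-/- libraries it had 150.1, 148.3 and 128.6 CPM. The genotypes overlapped, with a log2 fold change of 0.07 ± 0.10 (SE, edgeR adjusted p = 0.974) and a 95% interval of the ratio from 0.891 to 1.23. The sign of this small difference was not fixed by the data, since it was negative with log2(TPM + 1) in limma (-0.22).

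Bmpr2 (ENSMUSG00000067336, chromosome 1, 59763400 to 59879014), the type II receptor that BMP ligands share, had 315.0, 277.6 and 309.6 CPM in the Glis2+/+ libraries. It had 296.9, 302.5 and 323.7 CPM in the Glis2-/- libraries, which lie within or just above the Glis2+/+ range. Its log2 fold change was 0.03 ± 0.09 (SE, edgeR adjusted p = 0.982), with a ratio between 0.885 and 1.183 at 95%, and it was -0.14 with log2(TPM + 1) in limma. For both receptors a 1.5-fold change in either direction, the study's threshold, lies outside these intervals. Gm38125 overlaps Bmpr2 on its strand and had 105 to 233 counts, far fewer than the 7429 to 10131 of Bmpr2.

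By counts Bmpr2 exceeded Bmpr1a, while per length the order was the opposite, with 1.34 to 1.85 times as much Bmpr1a as Bmpr2 TPM in the 6 libraries. Bmpr1b (ENSMUSG00000052430, chromosome 3, 141837136 to 142169425), the other type I receptor, had few reads. It had 11, 6 and 5 counts in the Glis2+/+ and 10, 0 and 2 counts in the Glis2-/- libraries and did not pass the filter. Summed over the libraries, 22 counts stood against 12, a ratio of 0.541 with an exact 95% interval of 0.244 to 1.14 that covers counting error only. The 0 counts of Glis2-/- replicate 2 allow up to 3 counts, or 0.100 CPM.

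All 4 Id genes had a fitted log2 fold change above 0, although that of Id1 was negative in the 3 fits on TPM, where the median of all genes was negative too, and 0 were called. Id3 (ENSMUSG00000007872, chromosome 4, 136143497 to 136145755) stood apart most. It had 39.1, 22.1 and 37.6 CPM in the Glis2+/+ and 42.5, 48.4 and 50.4 CPM in the Glis2-/- libraries, from 631 to 1576 counts. Each Glis2-/- library lay above each Glis2+/+ library, a separation seen in 1 of the 9 members and, upward, in 6.23% of all genes tested. No member lay lower without overlap, against 5.5% of all genes, and 11.7% of all genes were separated in either direction. The two-sided exact permutation p of 0.1 for Id3 is the smallest that 3 mice against 3 allow.

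The log2 fold change of Id3 was 0.52 ± 0.21 (SE), a ratio of 1.43 with a 95% interval of 1.02 to 2.00, with an unadjusted p of 0.039 and an adjusted p of 0.906 in edgeR. Without Glis2+/+ replicate 2, the lowest library, it was 0.30 with an unadjusted p of 0.066. On the per-length scale the genotypes overlapped, since Glis2-/- replicate 1 had 65.3 TPM and lay below Glis2+/+ replicates 1 and 3 with 69.0 and 66.3 TPM.

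Id1 (ENSMUSG00000042745, chromosome 2, 152736251 to 152737410) is the Id gene most often used as a readout of BMP signaling. It had 27.7, 13.5 and 23.4 CPM in the Glis2+/+ and 19.3, 20.1 and 27.8 CPM in the Glis2-/- libraries. The genotypes overlapped, with a log2 fold change of 0.06 ± 0.27 (SE, edgeR adjusted p = 0.992). Without Glis2+/+ replicate 2, which held the lowest Id1 value, it was -0.19.

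Id2 (ENSMUSG00000020644, chromosome 12, 25093799 to 25097140) had 52.0, 56.8 and 55.5 CPM in the Glis2+/+ libraries, within a coefficient of variation of 4.55%. In the Glis2-/- libraries it had 60.9, 86.7 and 53.9 CPM, so that replicate 2 stood above the other two. Its log2 fold change was 0.30 ± 0.17 (SE, edgeR adjusted p = 0.930). The value was 0.06 when Glis2-/- replicate 2 was left out. It became 0.42 when Glis2-/- replicate 3 was left out, with an unadjusted p of 0.039 in edgeR. The summed level of the immediate early genes, which respond to tissue dissociation, was also highest in Glis2-/- replicate 2. It was 14766 CPM there, against 9821 to 12441 CPM in the other 5 libraries. All 8 of these genes had a log2 fold change above 0 (median 0.23), 2 of them at an unadjusted p under 0.05 and 0 called in edgeR. Their part in the Id2 values was not tested.

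Id4 (ENSMUSG00000021379, chromosome 13, 48261228 to 48266026) was the Id gene with the most counts, from 2602 to 4742. It had 135.3, 91.1 and 101.7 CPM in the Glis2+/+ and 143.3, 93.9 and 151.5 CPM in the Glis2-/- libraries. The genotypes overlapped, replicate 2 being lowest in each, with a log2 fold change of 0.24 ± 0.21 (SE, edgeR adjusted p = 0.941). Leaving out 1 mouse moved it between 0.10, without Glis2-/- replicate 3, and 0.42, without Glis2-/- replicate 2. All 7 basal markers, like Id4, had a fitted log2 fold change above 0. The 7 basal markers summed to 3983 to 5142 CPM in Glis2+/+ and 5443 to 6553 CPM in Glis2-/- libraries, without overlap. Myh11 and Acta2 were the largest parts of this sum. Taken singly, only Oxtr lay higher without overlap, against 6.23% of all genes, and the other basal markers overlapped. The median log2 fold change of the 7 was 0.41. The unadjusted edgeR p was under 0.05 for 4 of them, against 5.32% of all genes, and 0 were called. The 6 immune markers summed to 27.7, 14.5 and 23.1 CPM in the Glis2+/+ and 27.6, 27.7 and 58.7 CPM in the Glis2-/- libraries, with 4 of them above 0 (median 0.77) and 0 called in edgeR. At an unadjusted edgeR p under 0.05 were 3 of the 6, against 5.32% of all genes. Of these, Ptprc and Cd79a were higher in each Glis2-/- library, as were 6.23% of all genes, and Adgre1 had a log2 fold change of -1.56. Cd79a had only 12 to 140 counts. Ptprc had 14.8, 14.5 and 38.7 CPM in the Glis2-/- libraries, so that replicate 3 stood highest. The CD45 antibody of the sort marks immune cells and is commonly used to remove them. The part of basal and immune cells in the Id4 and Id3 values was not tested.

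**Figure D3:**
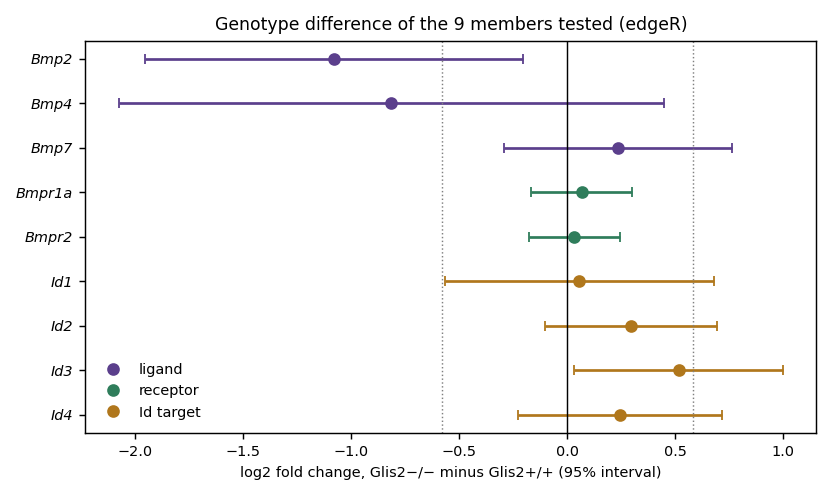
Log2 fold change of the 9 members tested (Glis2-/- minus Glis2+/+) with its 95% interval from edgeR. Dotted lines mark the threshold of 0.58. Only the intervals of Bmp2 and Id3 lie on one side of 0, and those of Bmpr1a and Bmpr2 lie between the dotted lines.

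Taken per length, the 4 Id genes together had 244.6, 161.8 and 226.5 TPM in the Glis2+/+ and 229.3, 249.0 and 264.6 TPM in the Glis2-/- libraries. Id2 had the largest mean share of this sum. Id2 held 25.9% to 43.7%, Id3 held 21.1% to 34.3%, Id1 held 13.9% to 21.6% and Id4 held 13.5% to 23.2% over the 6 libraries. All 4 Id genes were therefore present in each library. Tcf3, Tcf4 and Tcf12, which encode the E proteins that Id proteins bind, together had 226.2 to 282.0 TPM. The ratio of Id to E protein TPM was 0.867, 0.715 and 0.900 in the Glis2+/+ and 0.949, 1.02 and 1.06 in the Glis2-/- libraries, without overlap. This ratio was also formed after the values were seen, and no test is given for it.

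Sequence before the start of Id genes is shown because Id genes are known SMAD targets. The 250 bases before each RefSeq start (GRCm38.p6) were searched on both strands for the GC-rich motif GGCGCC, which is its own reverse complement, and for the SMAD binding element CAGAC, or GTCTG on the other strand. A window was given for 7 of the members and not for Bmp2, Bmp7 and Id1. The motif GGCGCC lay before Bmpr1a, Bmpr2, Id2 and Id4, and in 9.59% of all 32851 windows. The element CAGAC lay before Bmpr1b and Id3, and in 42.2% of all windows. These shares are counted by window while the members are listed by gene, so they are not directly comparable. The Id2 stretch is chr12:25096306-25096335 on the minus strand, in an intron of a longer Id2 transcript in GENCODE. The Id3 stretches are chr4:136143643-136143672 and chr4:136143742-136143771 on the plus strand, in the UTR of an exon in GENCODE, which starts Id3 earlier than RefSeq does. The Id4 stretch is chr13:48260956-48260985 on the plus strand, outside the annotated gene. Each is given 5′ to 3′ with the motif in capitals.
Id2: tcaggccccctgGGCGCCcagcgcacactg
Id3 distal: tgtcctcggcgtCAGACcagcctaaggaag
Id3 proximal: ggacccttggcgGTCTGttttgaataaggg
Id4: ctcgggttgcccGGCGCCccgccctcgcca
These matches are descriptions of the letters and not of binding.

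The replicates of one genotype differed in a way that several members shared. Of the 9 members tested, 7 were lowest in Glis2+/+ replicate 2 among the Glis2+/+ libraries, namely Bmp2, Bmp4, Bmp7, Bmpr2, Id1, Id3 and Id4, against 35.5% of all genes tested. Bmpr1a and Id2 were highest there. In the Glis2-/- libraries, 4 of the 9 members were lowest in replicate 2, against 35.3% of all genes. Glis2+/+ replicate 2 had the lowest fibroblast and endothelial sums and the highest epithelial sum of the 6 libraries. With the mean log2 CPM of the fibroblast markers as a covariate in edgeR, 0 members were called. The log2 fold change was then -0.86 for Bmp2, -0.60 for Bmp4, 0.33 for Bmp7, 0.19 for Id1 and 0.63 for Id3. The unadjusted edgeR p was then under 0.05 for Bmp2, Bmp7 and Id3. It was under 0.05 for 1778 of all 21236 genes tested, up from 1130 without the covariate. The smallest adjusted p among the members in this fit was that of Id3, 0.293 from edgeR.

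**Figure D4:**
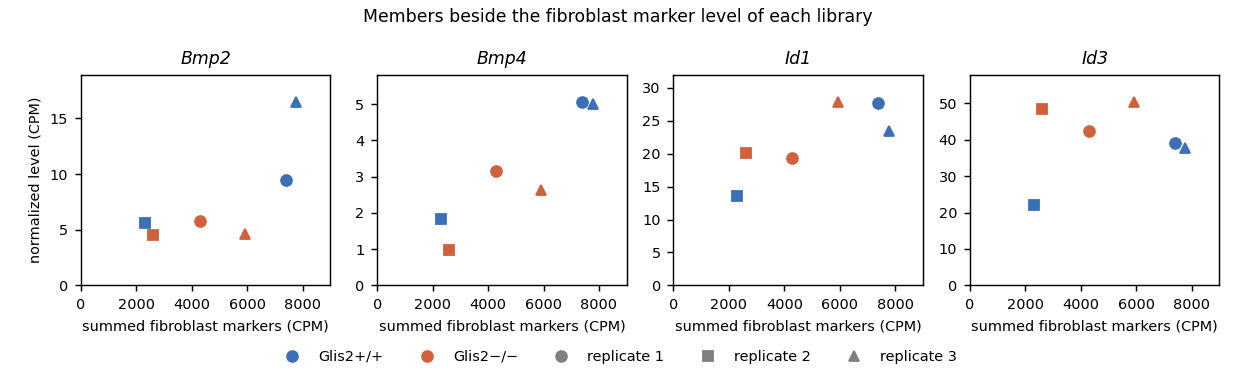
CPM of Bmp2, Bmp4, Id1 and Id3 (y axes) against the summed CPM of 7 fibroblast markers (x axes), one point per library. Bmp4 is lowest in the libraries with the lowest sums, replicate 2 of each genotype (2306 and 2605 CPM), and Id3 is higher in each Glis2-/- library than in each Glis2+/+ library.

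The other 54 genes of the pathway, listed by role, gave the setting of these members. Of these, 46 passed the filter, 24 with a log2 fold change above 0 and 22 below, with a median of 0.01, and 0 were called in edgeR or in DESeq2. The unadjusted edgeR p was under 0.05 for 2 of the 46, Dlx5 and Smad7, against 5.32% of all genes. In CPM 5 lay higher and 1 lower without overlap, against 6.23% and 5.5% of all genes. On rescaled TPM the Glis2-/- mean was the higher for 19 of the 46, against 41.6% of all genes, and 3 lay higher and 2 lower without overlap, against 3.88% and 7.86% of all genes.

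Among the other ligands, Bmp6 was the most abundant, with 8.53 ± 3.52 CPM in Glis2+/+ and 7.22 ± 1.61 CPM in Glis2-/- libraries (SD, n = 3 each). Of the 6 other ligands tested, 5 had a log2 fold change below 0. Bmp10, Bmp15, Gdf2, Gdf6 and Gdf7 did not pass the filter. The sixth, Gdf5, had 2, 10 and 4 counts against 14, 21 and 13 counts, without overlap but on few counts. Tgfbr3, a co-receptor that binds BMP and TGF-β ligands, was the highest of the other receptors and co-receptors, with 298.4 ± 52.1 CPM and 329.1 ± 47.8 CPM (SD, n = 3 each). Hjv did not pass the filter. Of the 8 genes tested in that group, 0 had separate genotypes in CPM, and on rescaled TPM 1 did, Acvr2b, which was higher, as were 3.88% of all genes.

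The secreted regulators include antagonists that keep ligands from receptors, such as Noggin and Sostdc1. Of the 14 tested, 7 lay above 0 and 7 below, and their median was -0.01. On rescaled TPM 5 of the 14 had the higher Glis2-/- mean, and 1, Nbl1, lay lower without overlap, as did 7.86% of all genes. Fstl1 was the most abundant, with 348.5 ± 122.4 CPM and 326.9 ± 87.5 CPM (SD, n = 3 each). Grem1 and Sost did not pass the filter. The gene of Noggin, Nog, was counted only 5 to 31 times per library.

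Of 8 genes for SMADs and their ubiquitin ligases, 6 had a log2 fold change above 0, and in 4 of them, Smad4, Smad5, Smad7 and Smad9, each Glis2-/- library lay above each Glis2+/+ library, against 6.23% of all genes tested, and 0 were called. On rescaled TPM the Glis2-/- mean was higher for 4 of the 8, against 41.6% of all genes, and Smad9 alone of them lay higher without overlap, against 3.88% of all genes. Smad7, an inhibitory SMAD induced by BMP and TGF-β signals, had 77.8 ± 0.947 CPM in Glis2+/+ and 92.1 ± 7.94 CPM in Glis2-/- libraries (SD, n = 3 each), with a log2 fold change of 0.24 ± 0.10 (SE, edgeR adjusted p = 0.906). Smad9 rested on few counts, with 23, 20 and 27 against 98, 39 and 37. Its log2 fold change was 1.36 ± 0.61 (SE, edgeR adjusted p = 0.906).

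Of 7 other target and feedback genes tested, 3 had a log2 fold change above 0 and 4 below, and on rescaled TPM the Glis2-/- mean was higher for 4. Dlx5, a homeobox gene induced by BMP in bone cells, had 21, 39 and 28 counts in the Glis2+/+ and 7, 8 and 4 counts in the Glis2-/- libraries. Its genotypes did not overlap, in the direction opposite to Id3, and its log2 fold change was -2.19 ± 0.73 (SE, edgeR adjusted p = 0.906). Hey1, also a target of Notch, was the most abundant in this group, with 30.96 ± 6.34 CPM and 29.6 ± 9.40 CPM (SD, n = 3 each). Among the E proteins, Tcf12 was the highest, with 174.5 ± 6.92 CPM and 176.5 ± 13.9 CPM, and the log2 fold changes of the 3 genes lay between -0.10 and 0.02.

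**Figure D5:**
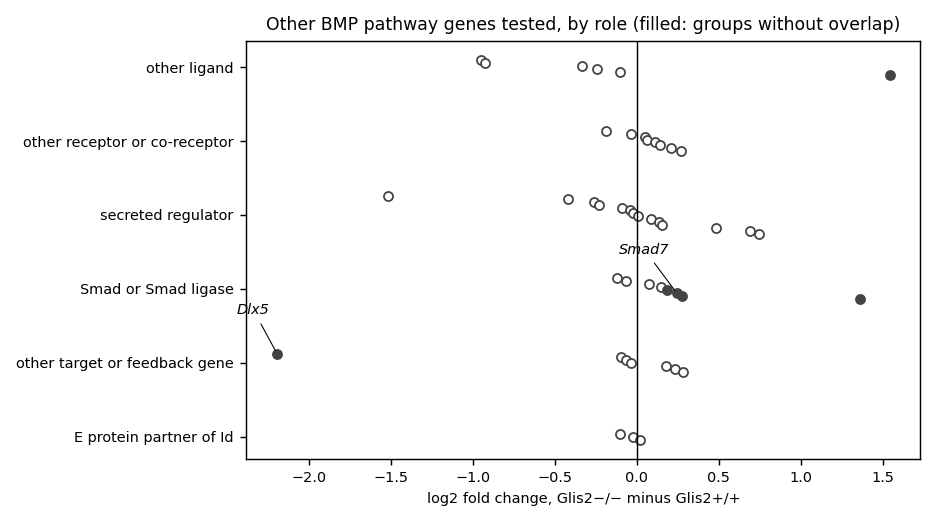
Log2 fold change (Glis2-/- minus Glis2+/+, x axis) of the 46 other BMP pathway genes tested, by role. Filled points are genes whose genotypes do not overlap, 5 of them higher and 1 lower in CPM (6.23% and 5.5% of all genes tested), and the 2 genes named have an unadjusted p under 0.05.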

How the data were processed

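RNA of sorted mammary epithelium was measured in 3 Glis2+/+ and 3 Glis2-/- mice, and stranded libraries were made from 1 ng of total RNA. Per the study's methods, reads were quantified with Salmon 1.2.1 on an mm10 transcriptome with the genome as decoy, and summed by gene with tximport. The authors deposited estimated counts as whole numbers without scaling, and TPM as log2 values, with 1 added before the logarithm. The strand setting of the counting is not given in the sources used here. As estimates they depend on how reads were shared between isoforms and overlapping genes. Symbols and positions were taken from GENCODE M21 (GRCm38), which matched 54166 of 54418 identifiers. Counts were compared with edgeR 4.0.16 (filterByExpr, TMM, glmQLFit, glmQLFTest) in R 4.3.3, over all genes, with Benjamini-Hochberg adjustment. The standard error is the log2 fold change divided by the square root of F. Alternatives were DESeq2 1.42.0 with apeglm 1.24.0, limma 3.58.1 on log2 TPM, other filters and scalings, a replicate block, a fibroblast covariate and leaving out each mouse. The functions were tested on simulated data. The study gives 3 mice per genotype, so each library was taken as 1 mouse. No library was a copy of another, since chi-square per degree of freedom was at least 20.3.

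The members and lists were chosen with earlier results of these data known. The text names all 10 members and, of the other pathway genes, those with an unadjusted p under 0.05, the most abundant of each role by mean CPM and those left out by the filter. Gdf5, Smad9, Smad4, Smad5, Acvr2b, Nbl1, Nog, Ptprc, Cd79a, Adgre1 and Plin1 were named after their values were seen. So were the markers Oxtr, Myh11, Acta2, Notch3, Lum, Pdgfra, Lep, Cfd, Acta1 and Mylpf.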

Additional observations from a re-analysis of the deposited data

How the results depend on the processing

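The count of 0 members called in edgeR (2 at an unadjusted p under 0.05) and of 0 other pathway genes (2) was 0 under all 16 alternatives, including no fold threshold and each mouse left out in turn. The count of 0 among all genes (1130 at an unadjusted p under 0.05) was 45 in DESeq2 with apeglm, 40 without a filter on low counts, 5 with the fibroblast covariate, 2 with log2(TPM + 0.1) and 1 with rescaled log2(TPM + 1) in limma. In DESeq2 with apeglm the members were shrunk to about 0 (Bmp2 -7e-06, Id3 1e-05), so the sign there says little. Of the 9 members, 6 kept their sign in all 15 alternatives for single genes, that one included. Bmpr1a was -0.22 with log2(TPM + 1), -0.24 with log2(TPM + 0.1), -0.14 with rescaled TPM and -1.96e-04 in DESeq2 with apeglm. Bmpr2 was -0.14, -0.16 and -0.058 in the 3 TPM fits, and Id1 was -0.096, -0.10 and -0.0063. The median over all genes was -0.14 with log2(TPM + 0.1), against 0.01 in edgeR. Without 1 mouse, Bmpr2 ranged from -0.020 to 0.056 and Id1 from -0.19 to 0.26. Bmp2 ranged from -1.38 to -0.60 and Id3 from 0.30 to 0.64. The cause was not tested. In the replicate block fit 0 members and 0 of all genes were called. The numbers were not taken as pairs of mice, since the deviations of same-numbered libraries correlated at -0.032, 0.286 and 0.057. Depth limits Bmpr1b, Dlx5, Gdf5 and Smad9, which rest on few counts.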
